A study of Mus musculus with 64 samples.

Results

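Activating receptors and their signalling adaptors were followed as 10 transcripts in cultured mouse natural killer (NK) cells, lymphocytes that kill stressed, infected or transformed cells without prior priming. The 10 members were taken by gene symbol from the deposited table of raw counts, which lists 36273 genes. They are 5 receptors, namely Klrb1c, Ncr1, Klrk1, Fcgr3 and Cd160, and 5 adaptors, namely Fcer1g, Tyrobp, Hcst, Cd247 and Lat. All 10 passed the filter on low counts, which kept 10723 genes.

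Most NK activating receptors have short tails that cannot signal and therefore pair in the membrane with adaptors that can. Klrb1c encodes NK1.1, the receptor engaged by the stimulating antibody in this study, and NK1.1 pairs with the FcR gamma chain, encoded by Fcer1g. Ncr1 encodes NKp46 and Fcgr3 encodes the low-affinity IgG receptor CD16, and both use FcR gamma, while NKp46 also uses the zeta chain encoded by Cd247. Klrk1 encodes NKG2D, which uses DAP10, the product of Hcst, and in mice also DAP12, the product of Tyrobp. Cd160 encodes a membrane-anchored receptor that binds the tumour necrosis factor receptor family member HVEM. FcR gamma, the zeta chain and DAP12 carry tyrosine motifs that recruit the kinases Syk and ZAP-70, which in turn phosphorylate scaffolds such as the product of Lat. Prostaglandin E2 (PGE2) acts on NK cells through the receptors EP2 and EP4, which raise cyclic AMP.

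The series holds 64 bulk libraries of splenic NK cells in 18 groups of genotype, treatment and stimulation. DKO cells (GzmbCrePtger2-/-Ptger4fl/fl, called EP2/EP4KO in the labels) lack EP2, and Cre driven by Gzmb deletes EP4. EP2KO cells (Ptger2-/-Ptger4fl/fl) lack EP2 and carry the same floxed Ptger4 without Cre, and WT cells are C57BL/6J. All cells had first grown for 5 days with IL15:IL15Ra and a low dose of IL-2. They then received PGE2 at 100 ng/ml, conditioned medium of PGE2-producing control BRAFV600E cells (CM), or neither, for 5 h. In the stimulated groups, 1 h of treatment came first and antibody against NK1.1 was present for the last 4 h. Each DKO group has 3 libraries, and each EP2KO and WT group has 4, except that unstimulated WT cells given PGE2 have 2 (replicates 2 and 4). Nothing in the labels ties replicates to separate mice or cultures, and the p-values reflect scatter among these libraries that may be technical.

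Library totals ran between 753973 and 1693750 counts, with a median of 1256163. Levels are given as CPM, which scales each library to the same total, after normalization factors for single genes and without them for sums over lists. Ptger2 had a median of 7 counts in DKO, 7 in EP2KO and 8 in WT libraries, and Ptger4 had 72 in DKO, 35 in EP2KO and 30 in WT libraries. The counts come from transcript 3' ends, and where they lie relative to the deleted parts is not given, so they do not check the genotypes. DKO libraries also differed in sex-linked transcripts, with Xist at 42.2 CPM in DKO libraries and 672 CPM in the other libraries, and with Ddx3y at 96.1 CPM and 3.19 CPM. NK identity transcripts summed to group means between 5722 and 8371 CPM. Markers of mast cells and basophils, called basophil markers here (Mcpt8, Cpa3, Ms4a2 and Fcer1a, with 4 of 4 tested and none at 0 in all libraries), summed to group means between 434 and 1858 CPM. The 6 libraries of EP2KO replicate 4 stood apart at 3358 to 4853 CPM. Crem, a cyclic AMP-responsive gene, rose by 2.23 ± 0.21 on the log2 scale (SE, adjusted p = 5.9e-12) with PGE2 in unstimulated WT cells, and its change in unstimulated DKO cells was 0.38 ± 0.22 (adjusted p = 1).

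The members lie on chromosomes 1, 3, 6 and 7 of GRCm38, by the GENCODE M21 annotation. Klrb1c (chr6:128778485-128789215, minus strand) and Klrk1 (chr6:129610323-129623864, minus strand) are in the NK gene complex. Ncr1 is at chr7:4337724-4345164 on the plus strand and Cd160 at chr3:96798763-96829351 on the minus strand. Fcgr3 (chr1:171051174-171064935) and Fcer1g (chr1:171229572-171234365) lie near each other on the minus strand. Cd247 (chr1:165788681-165877277, plus strand) shares 3007 exonic bases with Pou2f1 on the opposite strand, so its counts could include that gene's if strand was not used in counting. Klrb1c shares 413 exonic bases with Gm44511 on the same strand, and Cd247 a shorter stretch with Gm16565 on the same strand, which a strand setting would not resolve. Tyrobp (chr7:30413760-30417585, plus strand) and Hcst (chr7:30417712-30419854, minus strand) end 126 bases apart and share no exon, and Lat is at chr7:126363824-126369570 on the minus strand. In the last 500 bases of the longest coding transcript, no member shared a 50-base stretch with the transcripts of another gene. Only the sense direction was searched, so this search could not find an overlap on the opposite strand, such as that of Cd247 with Pou2f1.

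Promoter windows of 250 bases before to 50 after a transcription start, from RefSeq on GRCm38.p6, were found for 9 of the 10 members. Those of Ncr1, Cd160 and Klrb1c are shown because these were the members that fell in unstimulated cells under both treatments, in WT and in EP2KO cells, and that of Fcgr3 because Fcgr3 went the other way in stimulated WT cells. Capitals mark the RUNX core TGTGGT on either strand (ACCACA on the other strand) and the core TGACG of the cyclic AMP response element on either strand. All are written 5' to 3' on the strand of the gene.
Ncr1 (chr7:4337465-4337764, plus strand): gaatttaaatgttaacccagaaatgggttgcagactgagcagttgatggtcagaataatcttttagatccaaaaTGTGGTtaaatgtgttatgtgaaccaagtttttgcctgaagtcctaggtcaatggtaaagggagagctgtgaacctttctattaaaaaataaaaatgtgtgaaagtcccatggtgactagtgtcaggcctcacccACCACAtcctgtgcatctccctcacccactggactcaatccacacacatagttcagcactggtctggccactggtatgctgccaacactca
Cd160 (chr3:96814472-96814771, minus strand): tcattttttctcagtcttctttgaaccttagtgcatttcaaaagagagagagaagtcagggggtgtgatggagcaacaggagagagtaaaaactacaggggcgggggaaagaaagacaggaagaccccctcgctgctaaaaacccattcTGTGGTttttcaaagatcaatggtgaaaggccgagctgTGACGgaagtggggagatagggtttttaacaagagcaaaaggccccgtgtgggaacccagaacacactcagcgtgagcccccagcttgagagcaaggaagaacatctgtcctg
Klrb1c (chr6:128788592-128788891, minus strand): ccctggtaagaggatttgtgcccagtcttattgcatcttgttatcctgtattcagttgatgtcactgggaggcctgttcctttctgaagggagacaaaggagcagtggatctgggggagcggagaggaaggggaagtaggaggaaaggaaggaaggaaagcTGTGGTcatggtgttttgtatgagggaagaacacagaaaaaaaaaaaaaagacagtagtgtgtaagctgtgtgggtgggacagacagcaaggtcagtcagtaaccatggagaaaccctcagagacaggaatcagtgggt
Fcgr3 (chr1:171059354-171059653, minus strand): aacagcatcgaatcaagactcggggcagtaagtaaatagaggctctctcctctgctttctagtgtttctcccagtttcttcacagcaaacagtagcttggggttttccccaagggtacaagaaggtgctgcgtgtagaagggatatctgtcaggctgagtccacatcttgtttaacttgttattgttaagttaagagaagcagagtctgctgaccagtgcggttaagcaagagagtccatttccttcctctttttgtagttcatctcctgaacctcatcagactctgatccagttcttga
The Ncr1 window held 2 matches to the RUNX core, at -176 to -171 and -41 to -36 from the start. Klrb1c held 1, at -89 to -84, and the Cd160 window held 1, at -101 to -96, together with a TGACG match at -63 to -59. The Cd160 window shown was chosen because it holds the TGACG match. Cd160 has another start in the table, whose window (chr3:96829302-96829601, not shown) held a RUNX core at -76 to -71 and no TGACG. The Fcgr3 windows held neither motif. The RUNX core was in a window of 6 of the 9 members, which were Ncr1, Cd160, Klrb1c, Klrk1, Fcer1g and Lat, and in none for Cd247, Fcgr3 and Hcst. Cd160 alone among the 9 held TGACG, and only in the window shown. Of 32851 promoter windows of the same length, 16.8% held the RUNX core, 20.8% the core TGACG, 1.79% the full element TGACGTCA and 7.81% the AP-1 motif TGANTCA. These shares are per window, while a member can have more than 1 window. No member's window held the full element, and Klrk1 alone among the 9 held the AP-1 motif, at 18 to 24. These are matches of letters only, and binding was not measured.

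Stimulation through NK1.1 went with less transcript of its own receptor gene, Klrb1c, and of the related genes Klrb1a and Klrb1b. In untreated WT cells, Klrb1c stood at 228, 189, 200 and 194 CPM with anti-NK1.1, against 455, 441, 450 and 489 CPM without it. Every stimulated library was below every unstimulated library. The fold change was -1.18 ± 0.13 on the log2 scale (SE, adjusted p = 8.2e-11), by edgeR's quasi-likelihood test with Benjamini-Hochberg adjustment over 10723 genes, which is the test behind all adjusted p-values here. It was -1.54 ± 0.14 in EP2KO cells (adjusted p = 1.7e-14) and -1.21 ± 0.16 in DKO cells (adjusted p = 4.5e-09). The fall was not particular to Klrb1c. In WT cells Klrb1a changed by -1.23 ± 0.16 (adjusted p = 2.0e-09) and Klrb1b by -1.71 ± 0.15 (adjusted p = 2.4e-15). Both were called lower in EP2KO and DKO cells too, while Klrb1f was called lower in EP2KO cells only. In bulk RNA, fewer cells of a type and less RNA per cell cannot be told apart.

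Fcgr3, for CD16, was the member with the largest change in WT and DKO cells. It had 48.7, 36.0, 59.5 and 52.2 CPM in stimulated WT cells, against 265, 197, 212 and 245 CPM in unstimulated WT cells. The groups did not overlap, and the fold change was -2.24 ± 0.26 (adjusted p = 7.9e-10). In DKO cells it had 42.3, 70.0 and 40.4 CPM with stimulation and 182, 269 and 162 CPM without, again with no overlap (-1.99 ± 0.30, adjusted p = 4.3e-07). EP2KO cells gave 68.0, 72.6, 48.5 and 152 CPM with stimulation and 141, 180, 278 and 202 CPM without. There the stimulated library of replicate 4 lay above the lowest unstimulated library, and the fold change was -1.23 ± 0.25 (adjusted p = 8.7e-05).

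Ncr1, for NKp46, fell with stimulation in all 3 genotypes. WT cells had 138, 148, 166 and 173 CPM with anti-NK1.1 and 258, 293, 228 and 327 CPM without. The groups were separate, with a fold change of -0.82 ± 0.15 (adjusted p = 1.0e-05). The changes were -0.93 ± 0.15 in EP2KO cells (adjusted p = 1.7e-06) and -0.58 ± 0.18 in DKO cells (adjusted p = 0.0091). The DKO call ended without untreated unstimulated replicate 2 (-0.45 ± 0.19, adjusted p = 0.0805). Klrk1, for NKG2D, had the smallest change among the receptors in WT and DKO cells, with -0.30 ± 0.12 in WT (adjusted p = 0.032), -0.43 ± 0.12 in EP2KO (adjusted p = 0.0027) and -0.37 ± 0.14 in DKO cells (adjusted p = 0.033). Its 4 stimulated WT libraries lay between 788 and 878 CPM, below the 4 unstimulated ones at 950 to 1085 CPM. The Klrk1 call in WT ended without stimulated replicate 1 or 3 or unstimulated replicate 2 or 4 (adjusted p of 0.056 to 0.066), and that in DKO without unstimulated replicate 1 or stimulated replicate 2 or 3 (adjusted p of 0.093 to 0.10).

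Cd160 went the other way. In DKO cells it had 278, 216 and 176 CPM with stimulation against 94.3, 114 and 109 CPM without, and the groups did not overlap (1.08 ± 0.26, adjusted p = 0.0010). WT cells had 201, 141, 227 and 298 CPM with stimulation and 147, 115, 91.5 and 121 CPM without. Stimulated replicate 2 fell within the unstimulated range, and the fold change was 0.86 ± 0.23 (adjusted p = 0.0017). In EP2KO cells the change of 0.38 ± 0.23 did not pass the test (adjusted p = 0.21). The difference between EP2KO and WT in this response did not pass either (-0.49 ± 0.32, adjusted p = 0.96).

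Of the adaptors, Cd247, for the zeta chain, changed most with stimulation. It had 18.3, 16.5, 20.1 and 28.0 CPM in stimulated WT cells, against 58.9, 49.4, 57.2 and 59.8 CPM in unstimulated WT cells. The groups were well apart (-1.44 ± 0.21, adjusted p = 7.2e-08). The fall was called in EP2KO (-1.32 ± 0.22, adjusted p = 1.4e-06) and DKO cells (-1.07 ± 0.24, adjusted p = 2.7e-04) as well. Lat had 14.5, 14.4, 24.7 and 20.2 CPM in stimulated WT cells and 28.3, 40.7, 31.4 and 34.9 CPM in unstimulated WT cells, with no overlap (-0.89 ± 0.33, adjusted p = 0.028). Lat rests on low counts, between 7 and 65 counts over all 64 libraries. Its call ended without stimulated replicate 1 or 2 or unstimulated replicate 2 or 4 (adjusted p of 0.052 to 0.085).

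The remaining adaptors split the stimulated WT libraries into 2 pairs. Fcer1g had 664, 656, 1241 and 1307 CPM in stimulated WT replicates 1 to 4, against 1279, 1385, 1238 and 1361 CPM in unstimulated WT cells. Tyrobp had 678, 545, 1087 and 1037 CPM with stimulation and 1147, 1074, 1135 and 1277 CPM without. Hcst had 268, 208, 462 and 378 CPM with stimulation and 420, 449, 413 and 450 CPM without. In each case replicates 1 and 2 were low and replicates 3 and 4 overlapped or neared the unstimulated range. The fold changes were -0.45 ± 0.18 for Fcer1g (adjusted p = 0.038), -0.47 ± 0.16 for Tyrobp (adjusted p = 0.017) and -0.40 ± 0.15 for Hcst (adjusted p = 0.026). None of the 3 passed in EP2KO cells (adjusted p of 0.069 to 0.27) or in DKO cells (adjusted p of 0.34 to 0.83).

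These 3 adaptors have the shortest transcripts of the members, at 683 bases for Fcer1g, 597 for Tyrobp and 442 for Hcst, against 1235 bases or more for the other members. Across libraries they moved with other short transcripts. For 155 tested genes with a longest coding transcript under 700 bases, members left out, the median deviation from the group mean in stimulated untreated WT cells was -0.21, -0.53, 0.33 and 0.44 (log2 CPM, replicates 1 to 4). For the 9382 longer genes it lay between -0.0041 and 0.020. In the comparison of stimulated with unstimulated WT cells, these short genes had a median change of -0.30, beside 0.01 for all genes. Of these short genes 25.8% were called, beside 42% of all tested genes. With replicates 1 and 2 left out together, chosen after their low values were seen, the Fcer1g change was -0.06 ± 0.19 (adjusted p = 0.85), that of Tyrobp -0.14 ± 0.18 (adjusted p = 0.60) and that of Hcst -0.06 ± 0.16 (adjusted p = 0.82). The smaller changes follow from that choice. Leaving out replicate 1 or replicate 2 alone ended all 3 calls, as did leaving out unstimulated replicate 4, and the Fcer1g call also ended without unstimulated replicate 1 or 2. The part of transcript length in these values was not tested.

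**Figure D1:**
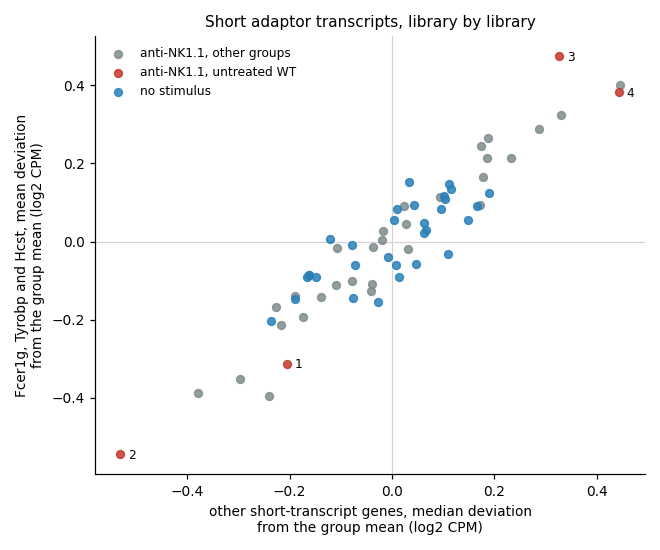
Each point is 1 of 64 libraries; the x axis gives the median deviation of 155 other short-transcript genes from their group mean and the y axis the mean deviation of Fcer1g, Tyrobp and Hcst, both in log2 CPM. Stimulated untreated WT replicates 1 and 2 (numbered) lie low on both axes at -0.21 and -0.53 on the x axis, and replicates 3 and 4 lie high at 0.33 and 0.44.

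In all, 10 of 10 members were called with stimulation in WT cells, 9 lower and 1 higher, where 42% of all tested genes were called, 19.1% lower and 23% higher. Without stimulated replicate 1 or unstimulated replicate 4 there were 5 calls, without stimulated replicate 2 there were 6, and with stimulated replicates 1 and 2 both left out there were 5. In EP2KO cells 5 of 10 were called, all lower (33.3% of all genes called, 15% lower), with Hcst joining without unstimulated replicate 4 (-0.42 ± 0.16, adjusted p = 0.0326) and Hcst (-0.45 ± 0.16, adjusted p = 0.0238) and Tyrobp (-0.48 ± 0.18, adjusted p = 0.0315) without stimulated replicate 3. In DKO cells 6 of 10 were called, with 5 lower and 1 higher (30.2% of all genes called, 13.8% lower and 16.4% higher). Klrb1c, Ncr1, Klrk1, Fcgr3 and Cd247 were called lower in all 3 genotypes. The median change of the members in WT cells was -0.65, beside 0.01 for all tested genes. No difference in the response to stimulation, EP2KO minus WT or DKO minus EP2KO, passed for a member by edgeR, where 0% of all genes were called, with 1 of 10 members at an unadjusted p under 0.05 in each comparison and 0 called by DESeq2.

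**Figure D2:**
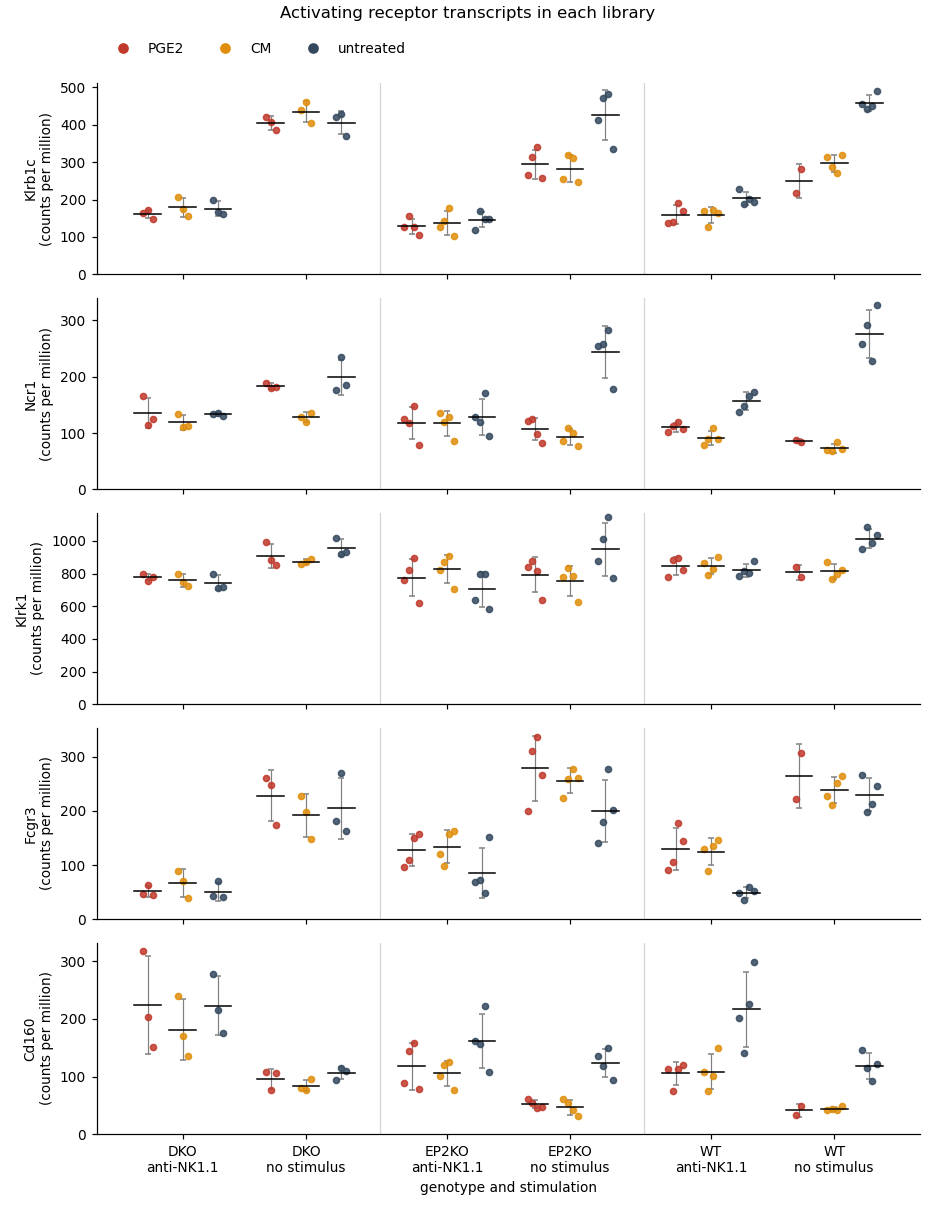
Each point is the level of a receptor transcript in 1 library, in CPM on linear axes that start at 0, with the group mean (black line) and SD (grey bar) for 18 groups. Klrb1c is lower with anti-NK1.1 in each genotype, at 189 to 228 CPM against 441 to 489 CPM in untreated WT cells, and Ncr1 is lower with PGE2 or CM in unstimulated WT and EP2KO cells.

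PGE2 without stimulation went with lower levels of 3 receptors in WT cells. Ncr1 had 88.1 and 83.4 CPM with PGE2, against 258, 293, 228 and 327 CPM in untreated cells. Cd160 had 33.7 and 49.5 CPM with PGE2 and 147, 115, 91.5 and 121 CPM in untreated cells. Klrb1c had 218 and 282 CPM with PGE2 and 455, 441, 450 and 489 CPM in untreated cells. For each gene both treated libraries lay below all 4 untreated libraries. The fold changes were -1.69 ± 0.21 for Ncr1 (adjusted p = 1.4e-08), -1.51 ± 0.33 for Cd160 (adjusted p = 0.0025) and -0.88 ± 0.17 for Klrb1c (adjusted p = 2.9e-04). Without PGE2 replicate 2, which leaves a single treated library assumed to vary like the other groups, Cd160 (-1.26 ± 0.43, adjusted p = 0.20) and Klrb1c (-0.70 ± 0.22, adjusted p = 0.12) were no longer called, and 1 member was.

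The same 3 receptors were lower with CM in unstimulated WT cells. Ncr1 had 69.1, 67.6, 84.9 and 71.2 CPM with CM, and its fold change against untreated cells was -1.92 ± 0.17 (adjusted p = 6.8e-14). Cd160 had 41.9, 44.1, 42.4 and 49.5 CPM with CM (-1.42 ± 0.26, adjusted p = 1.5e-04), and Klrb1c 312, 286, 271 and 318 CPM (-0.63 ± 0.13, adjusted p = 8.9e-04). None of these CM libraries reached the untreated range. Lat was also called, with 8.76, 15.4, 21.9 and 8.26 CPM with CM against 28.3, 40.7, 31.4 and 34.9 CPM in untreated cells (-1.36 ± 0.37, adjusted p = 0.015). The Lat call ended without CM replicate 1 (-1.20 ± 0.41, adjusted p = 0.067) or CM replicate 4 (-1.18 ± 0.40, adjusted p = 0.068).

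Thus 3 of 10 members were called lower with PGE2 in unstimulated WT cells and 4 of 10 with CM, and none higher. Over all tested genes, 2.97% were called with PGE2, 1.05% lower, and 8.23% with CM, 3.68% lower. The other members had negative fold changes too, except Fcgr3, without passing the test. With PGE2, Cd247 was at -0.77 ± 0.25 (adjusted p = 0.079), Fcer1g at -0.55 ± 0.22 (adjusted p = 0.21), Tyrobp at -0.54 ± 0.21 (adjusted p = 0.17) and Klrk1 at -0.33 ± 0.15 (adjusted p = 0.28). Lat was at -1.11 ± 0.44 (adjusted p = 0.194) and Hcst at -0.29 ± 0.18 (adjusted p = 0.492). In each of these 6 the 2 PGE2 and 4 untreated libraries did not overlap. The share of all tested genes without overlap was not counted, so this is given as a description only. Fcgr3 stood at 222 and 306 CPM with PGE2 and 197 to 265 CPM in untreated cells, with overlap and a fold change of 0.20 ± 0.29 (adjusted p = 0.80). The 155 short-transcript genes had a median change of -0.20 with PGE2 and -0.25 with CM in these cells, beside 0.01 for all genes in each, and the part of transcript length in the adaptor values was not tested. No member passed the test of CM against PGE2 by edgeR or DESeq2, with 0 of 10 at an unadjusted p under 0.05 in either state. Of all tested genes, 0% were called between CM and PGE2 in unstimulated and 0.00933% in stimulated cells.

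The same 3 receptors fell in EP2KO cells. With PGE2, Ncr1 had 122, 125, 98.8 and 83.1 CPM against 254, 259, 284 and 178 CPM untreated, with no overlap (-1.18 ± 0.16, adjusted p = 1.3e-07). Cd160 had 61.1, 54.1, 46.0 and 46.8 CPM with PGE2 against 136, 118, 149 and 93.5 CPM untreated, with no overlap (-1.25 ± 0.25, adjusted p = 6.7e-04). Klrb1c had 265, 314, 340 and 258 CPM with PGE2 against 413, 471, 481 and 335 CPM untreated, and here PGE2 replicate 3 lay just above untreated replicate 4 (-0.53 ± 0.13, adjusted p = 0.0088). The Klrb1c call ended without PGE2 replicate 1 or 4 or untreated replicate 2 or 3 (adjusted p of 0.0501 to 0.0561). With CM, the changes were -1.40 ± 0.16 for Ncr1 (adjusted p = 2.0e-09), -1.40 ± 0.26 for Cd160 (adjusted p = 1.6e-04) and -0.59 ± 0.13 for Klrb1c (adjusted p = 0.0026), with no overlap for any of them. Thus 3 of 10 members were called under each treatment, all lower, where 3.15% of all genes were called with PGE2, 1.4% lower, and 4.37% with CM, 2.14% lower. No difference from WT passed for any member by edgeR or DESeq2, with 1 of 10 at an unadjusted p under 0.05 for each treatment, and the Ncr1 differences (EP2KO minus WT) were 0.51 ± 0.25 with PGE2 and 0.53 ± 0.23 with CM (adjusted p = 1 for both).

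In DKO cells no member was called with either treatment, in either state, by DESeq2 or by edgeR without a replicate block. In that edgeR fit, unstimulated DKO cells had 0 of 10723 genes called with PGE2 (0%) or CM (0%). There 0 of 10 members had an unadjusted p under 0.05 for PGE2 and 1 of 10 for CM. With replicate number added to the edgeR model as a block, 1 member and 9 of 10723 genes were called for CM in unstimulated cells. Ncr1 stood at 189, 180 and 181 CPM with PGE2 against 177, 234 and 186 CPM untreated, and the groups overlapped (-0.12 ± 0.17, 95% interval -0.46 to 0.23). With CM it had 129, 119 and 136 CPM, and all 3 libraries lay below the untreated ones (-0.64 ± 0.18, 95% interval -0.99 to -0.29, adjusted p = 0.82). Cd160 had 108, 76.4 and 106 CPM with PGE2 and 79.5, 77.5 and 95.9 CPM with CM, against 94.3, 114 and 109 CPM untreated. Its fold changes were -0.13 with PGE2 (95% interval -0.66 to 0.40) and -0.33 with CM (95% interval -0.87 to 0.21). Klrb1c had 421, 407 and 385 CPM with PGE2 against 420, 428 and 369 CPM untreated, within the same range (-0.01, 95% interval -0.30 to 0.29).

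Direct tests of the difference between genotypes were called for Ncr1. The PGE2 effect in unstimulated cells, DKO minus EP2KO, was 1.06 ± 0.23 (adjusted p = 0.015), the single member called where 0.354% of all genes were called. It ended without untreated DKO replicate 1 (0.99 ± 0.25, adjusted p = 0.071) or 3 (1.02 ± 0.25, adjusted p = 0.057). The DKO minus WT difference, a comparison added after the results were seen, was 1.57 ± 0.27 for PGE2 (adjusted p = 2.7e-04) and 1.29 ± 0.24 for CM (adjusted p = 0.0027), where 0.485% and 0.28% of all genes were called. For CM, the DKO minus EP2KO difference of Ncr1 was 0.76 ± 0.24 (adjusted p = 0.33). No member was called in that comparison by edgeR without a replicate block, where 0.214% of all genes were, with 3 of 10 members at an unadjusted p under 0.05. DESeq2 called 1 member there, and edgeR with the block called 2 members and 70 of 10723 genes. Klrb1c (0.53 ± 0.20, adjusted p = 0.58) and Cd160 (1.12 ± 0.37, adjusted p = 0.36) did not pass for the DKO minus EP2KO difference of PGE2. Since DKO libraries differed from both other genotypes in sex-linked transcripts, receptor genotype and sex cannot be told apart in these values.

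**Figure D3:**
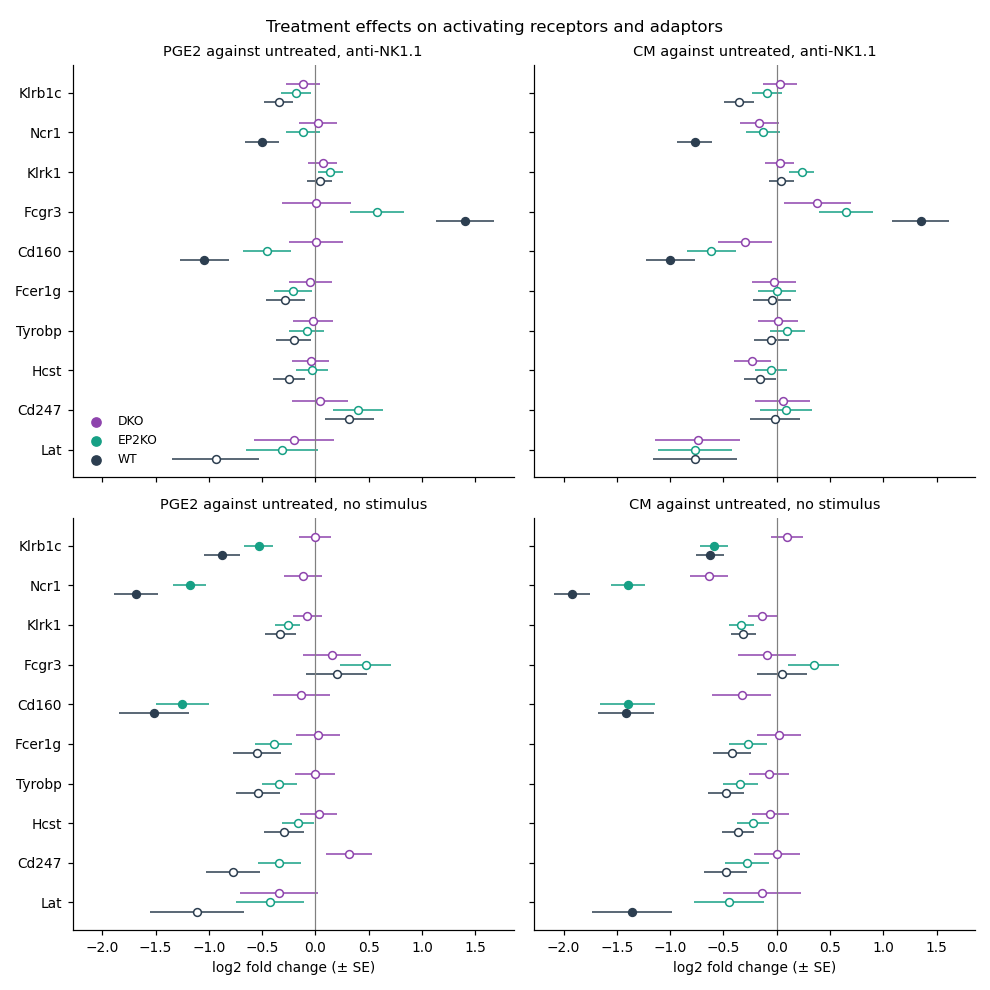
Log2 fold changes (± SE) of the 10 members with PGE2 (left panels) or CM (right panels) against untreated cells, with anti-NK1.1 (upper) or without (lower), coloured by genotype; filled symbols passed the test. In unstimulated cells, Ncr1, Cd160 and Klrb1c are filled for EP2KO and WT, with Ncr1 at -1.18 and -1.69 under PGE2; Lat is filled for WT under CM at -1.36, and no symbol is filled for DKO.

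In stimulated WT cells, PGE2 and CM went with more Fcgr3 and with less Cd160 and Ncr1. Fcgr3 had 90.0, 106, 177 and 145 CPM with PGE2 and 129, 88.6, 135 and 146 CPM with CM, against 48.7, 36.0, 59.5 and 52.2 CPM in stimulated untreated cells. Every treated library lay above every untreated one. The fold changes were 1.40 ± 0.27 with PGE2 (adjusted p = 9.6e-05) and 1.35 ± 0.27 with CM (adjusted p = 1.9e-04). All 8 treated libraries stayed below the unstimulated untreated libraries, which had 197 to 265 CPM. Basophil markers summed, in replicates 1 to 4, to 271, 839, 623 and 268 CPM with PGE2 and 238, 654, 578 and 266 CPM with CM, against 282, 804, 678 and 289 CPM in stimulated untreated WT cells. The sums with CM were below the untreated ones in all 4 numbers. Neutrophil markers (S100a8, S100a9, Ly6g, Mpo, Elane, Cxcr2, Retnlg and Mmp8, with 5 of 8 tested) summed to 59.4, 343, 93.5 and 52.6 CPM with PGE2, in replicates 1 to 4. With CM they summed to 67.1, 248, 77.9 and 45.3 CPM. Both were above the untreated neutrophil sums in all 4 numbers, which were 51.5, 200, 74.7 and 44.4 CPM. The neutrophil sums came mainly from Mpo, Elane, S100a8 and S100a9. Ly6g, Retnlg and Cxcr2 had group means of at most 0.59, 0.61 and 4.59 CPM over all groups. Whether the sums mark neutrophils was not tested. The part of basophils and neutrophils in the Fcgr3 values was not tested.

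Cd160 in stimulated WT cells had 113, 74.8, 113 and 120 CPM with PGE2, against 201, 141, 227 and 298 CPM untreated. The groups did not overlap (-1.04 ± 0.23, adjusted p = 6.8e-04). With CM it had 107, 75.6, 102 and 150 CPM, where replicate 4 passed the lowest untreated library (-0.999 ± 0.229, adjusted p = 0.0011). Ncr1 had 101, 112, 120 and 107 CPM with PGE2 and 79.5, 88.6, 109 and 89.2 CPM with CM, against 138, 148, 166 and 173 CPM untreated. Both treated groups lay wholly below the untreated one, at -0.51 ± 0.16 with PGE2 (adjusted p = 0.0195) and -0.77 ± 0.16 with CM (adjusted p = 2.7e-04). The Ncr1 call with PGE2 ended without PGE2 replicate 1 or untreated replicate 3 or 4 (adjusted p of 0.056 to 0.068). Klrb1c stood at 136, 141, 191 and 171 CPM with PGE2 against 189 to 228 CPM untreated and did not pass (-0.35 ± 0.14, adjusted p = 0.080).

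Under each treatment 3 of 10 members were called in stimulated WT cells, 2 lower and 1 higher, where 15.6% of all genes were called with PGE2, 9.63% lower and 6% higher, and 15.4% with CM, 9.22% lower and 6.2% higher. With stimulated untreated replicates 1 and 2 left out, 6 members were called with PGE2: Fcer1g (-0.67 ± 0.19, adjusted p = 0.0074), Hcst (-0.59 ± 0.16, adjusted p = 0.0038) and Tyrobp (-0.54 ± 0.18, adjusted p = 0.023) joined the 3 receptors. These 2 libraries were left out because the 3 adaptors were low in them, so the lower ratios to untreated cells follow from that choice, and PGE2 replicate 1, with the lowest Fcer1g level of all libraries at 539 CPM and a short-gene deviation of -0.24, was kept. Leaving out stimulated untreated replicate 2 alone started the Hcst call (-0.41 ± 0.15, adjusted p = 0.0461), and leaving out both started the Hcst call with CM (-0.50 ± 0.15, adjusted p = 0.0157). Without PGE2 replicate 3, the Klrb1c call started (-0.43 ± 0.15, adjusted p = 0.043).

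The treatment effect differed between stimulated and unstimulated WT cells for Ncr1. The difference, stimulated minus unstimulated, was 1.18 ± 0.26 for PGE2 (adjusted p = 0.0044) and 1.15 ± 0.23 for CM (adjusted p = 0.0015), a smaller fall in stimulated cells. The PGE2 difference ended without unstimulated PGE2 replicate 2 or 4 (adjusted p of 0.060 to 0.065). For Fcgr3 it was 1.30 ± 0.36 with CM (adjusted p = 0.037) and 1.21 ± 0.40 with PGE2 (adjusted p = 0.13). Leaving out any of 10 libraries ended the Fcgr3 call with CM, with values of 1.19 to 1.33 and adjusted p of 0.053 to 0.10, and so did leaving out stimulated untreated replicates 1 and 2 together (1.13 ± 0.43, adjusted p = 0.18). The 10 libraries were unstimulated untreated replicates 1 and 4, unstimulated CM replicates 1, 2 and 3, stimulated untreated replicates 1 and 2 and stimulated CM replicates 1, 3 and 4. Over all genes 1.31% were called for the PGE2 difference, 0.457% higher, with 1 of 10 members, and 2.19% for the CM difference, 0.839% higher, with 2 of 10 members. Cd160, at 0.47 ± 0.40 with PGE2 (adjusted p = 0.70) and 0.42 ± 0.35 with CM (adjusted p = 0.58), did not pass. Cd247 was at 1.09 ± 0.34 with PGE2 (adjusted p = 0.103), and was called without stimulated untreated replicate 4 (1.27 ± 0.35, adjusted p = 0.0485).

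Stimulated EP2KO cells gave no member call with PGE2 or CM by DESeq2 or by the edgeR fit with normalization factors and no replicate block. In that edgeR fit 7.29% and 10.4% of all genes were called. There 1 of 10 members had an unadjusted p under 0.05 for PGE2 and 3 of 10 for CM. With replicate number as a block, 2 members were called with PGE2 and 4 with CM, where 1254 and 1713 of 10723 genes were called. Library totals without normalization factors gave 2 members with CM. Fcgr3 had 96.9, 108, 150 and 157 CPM with PGE2 and 120, 97.5, 157 and 163 CPM with CM, against 68.0, 72.6, 48.5 and 152 CPM untreated. All treated libraries exceeded untreated replicates 1 to 3, and untreated replicate 4 lay among the treated ones. The changes were 0.58 ± 0.25 with PGE2 (adjusted p = 0.19) and 0.65 ± 0.25 with CM (adjusted p = 0.097). Basophil markers summed to 4853 CPM in that untreated library of replicate 4, to 3547 CPM with PGE2 and 3358 CPM with CM in replicate 4, and to 412 to 1148 CPM in the other stimulated untreated EP2KO libraries. Neutrophil markers summed to 621, 273, 66.1 and 540 CPM in stimulated untreated EP2KO replicates 1 to 4. Basophils and neutrophils also express Fcer1g and Fcgr3, and their part in these values was not tested. Markers of macrophages and dendritic cells, with 8 of 12 tested, summed to group means between 149 and 352 CPM over all groups. The part of those cells was not tested either. With replicate 4 left out of all 6 EP2KO conditions, chosen after its values were seen, Fcgr3 was called with PGE2 (0.90 ± 0.28, adjusted p = 0.036) and with CM (0.98 ± 0.28, adjusted p = 0.015). Its untreated library had the highest untreated Fcgr3 level, at 152 CPM, so the larger ratios to untreated cells follow from that choice.

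Cd160 in stimulated EP2KO cells had fold changes of -0.46 ± 0.23 with PGE2 (adjusted p = 0.28) and -0.62 ± 0.23 with CM (adjusted p = 0.079). Ncr1 stood at 126, 118, 148 and 79.4 CPM with PGE2 and 129, 119, 171 and 95.6 CPM untreated, and the groups overlapped (-0.12 ± 0.16, adjusted p = 0.79). Lat was high in replicate 4 of every EP2KO condition, at 29.1 to 50.5 CPM. Without that replicate, left out after its values were seen, the fall of Lat with stimulation was called (-0.81 ± 0.29, adjusted p = 0.026). The Lat change was -0.45 ± 0.32 (adjusted p = 0.29) with that replicate and -0.97 ± 0.33 (adjusted p = 0.0172) without its stimulated untreated library alone. Leaving out single libraries also started calls: stimulated untreated replicate 4 for Fcgr3 with both treatments (1.01 ± 0.25, adjusted p = 0.0058, and 1.08 ± 0.25, adjusted p = 0.0020) and for Cd160 with CM (-0.77 ± 0.24, adjusted p = 0.023), and CM replicate 4 for Lat with CM (-1.27 ± 0.38, adjusted p = 0.026). In unstimulated EP2KO cells, Klrk1 was called with CM without untreated replicate 4 (-0.42 ± 0.12, adjusted p = 0.032).

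Stimulated DKO cells had 0% of all genes called with PGE2 and 0.0746% with CM, and no member by edgeR or DESeq2, with 0 of 10 members at an unadjusted p under 0.05 for each. Fcgr3 had 46.0, 63.4 and 44.8 CPM with PGE2 and 89.5, 70.9 and 39.5 CPM with CM, against 42.3, 70.0 and 40.4 CPM untreated. The PGE2 and untreated libraries covered the same range (0.01 ± 0.32, 95% interval -0.63 to 0.64). The PGE2 effect on Fcgr3, DKO minus WT, was -1.40 ± 0.42 (adjusted p = 0.041), where 4.27% of all genes were called. It ended without any of 8 libraries (adjusted p of 0.0597 to 0.218), namely stimulated untreated WT replicate 1, 2 or 4, stimulated WT PGE2 replicate 3 or 4, stimulated untreated DKO replicate 2 and stimulated DKO PGE2 replicate 1 or 3, and without stimulated untreated WT replicates 1 and 2 together (-1.22 ± 0.49, adjusted p = 0.12). The Cd160 difference for PGE2 was 1.05 ± 0.34 (adjusted p = 0.0698), and it was called without stimulated untreated WT replicate 2 (1.20 ± 0.34, adjusted p = 0.0230), untreated DKO replicate 1 (1.23 ± 0.36, adjusted p = 0.0372) or DKO PGE2 replicate 3 (1.26 ± 0.35, adjusted p = 0.0245). DKO minus EP2KO in stimulated cells gave no member, by edgeR or DESeq2, for PGE2 (0.951% of all genes called) or CM (0.345%), with 0 of 10 at an unadjusted p under 0.05. EP2KO minus WT in stimulated cells gave none either, with 0% of all genes called and 1 of 10 members at an unadjusted p under 0.05 for each treatment. For CM the DKO minus WT difference of Fcgr3 was -0.97 ± 0.42 (adjusted p = 0.33). No member was called there by DESeq2 or by edgeR without a replicate block, with 1.21% of all genes called by edgeR and 3 of 10 members at an unadjusted p under 0.05. With the block, 1 member and 376 of 10723 genes were called.

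**Figure D4:**
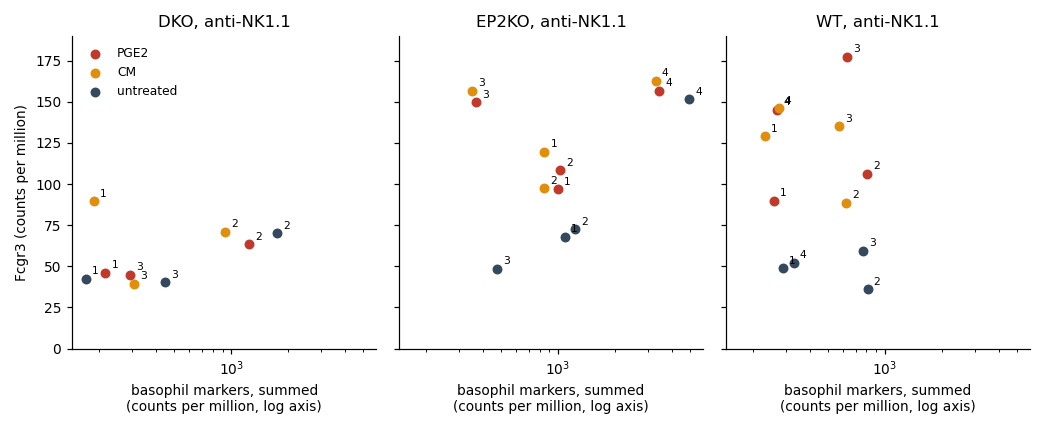
Fcgr3 in each stimulated library (y axis, CPM) against the summed basophil markers of the same library (x axis, CPM, log axis), by genotype and treatment, with replicate numbers. In WT cells the treated libraries lie at 88.6 to 177 CPM above the untreated ones at 36.0 to 59.5 CPM, and EP2KO replicate 4 stands apart on the x axis at 3358 to 4853 CPM.

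Without treatment, no member passed the test between genotypes. EP2KO against WT and DKO against EP2KO each gave 0 of 10 members by edgeR and by DESeq2 in either state, with 0 of 10 members at an unadjusted p under 0.05 in unstimulated cells, and 2 and 1 in stimulated cells. Between 0.056% and 0.0839% of all genes were called in these 4 comparisons. Klrb1c in stimulated cells had 120, 168, 148 and 149 CPM in EP2KO and 228, 189, 200 and 194 CPM in WT libraries. These did not overlap, and the difference of -0.47 ± 0.14 did not pass (adjusted p = 0.29).

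**Figure D5:**
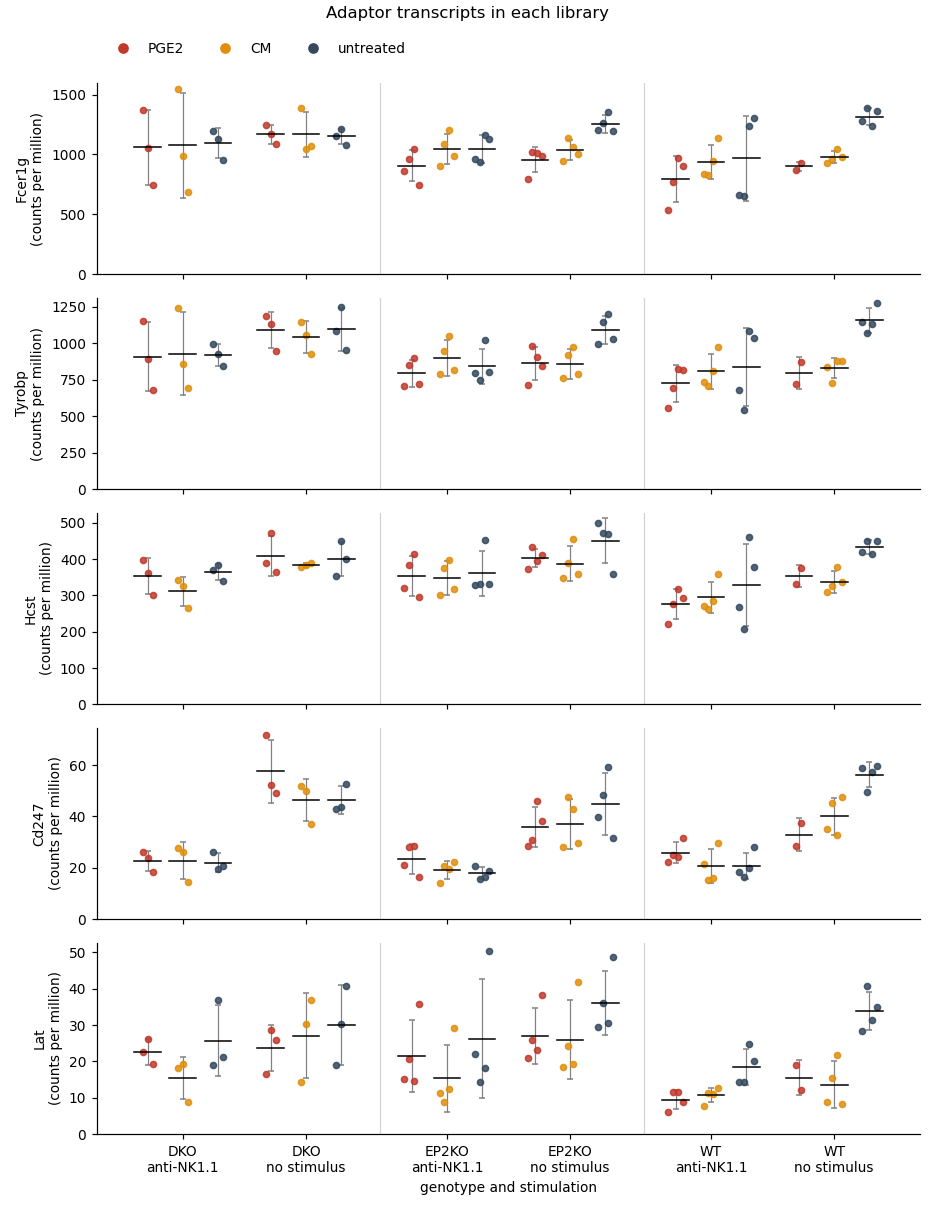
Each point is the level of an adaptor transcript in 1 library, in CPM on linear axes that start at 0, with the group mean (black line) and SD (grey bar). Cd247 is lower with anti-NK1.1 in each genotype, and the stimulated untreated WT libraries of Fcer1g split into 656 and 664 CPM against 1241 and 1307 CPM.

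Across the 18 group means, the members did not move as one block. Klrb1c and Cd247 were the receptor and adaptor most alike (r = 0.95), and Fcer1g and Tyrobp followed each other as closely (r = 0.95), while Fcgr3 and Cd160 ran opposite ways (r = -0.87). Among tested genes whose mean log2 CPM was 4 or more, the closest to Ncr1 was Id2 (r = 0.97), a transcription regulator needed for NK cells. Cd160 was closest to Prag1 (r = 0.97) and Slamf7 (r = 0.97), a receptor gene of the SLAM family. Klrb1c was closest to Rras2 (r = 0.97), Fcgr3 to Gna15 (r = 0.99) and Klrk1 to the NK receptor gene Klra7 (r = 0.93). These r values are Pearson correlations over 18 means that share 64 libraries, given as a description.

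Transcripts of the signalling cascade below the adaptors moved in both directions with stimulation. Of 34 tested genes of a list of 36, 10 were called higher and 16 lower in WT cells, with a median change of -0.18, where 42% of all tested genes were called and their median was 0.01. Lcp2, for the scaffold SLP-76, rose by 1.37 on the log2 scale in WT, and the docking protein gene Dok2 was at -1.60. Syk was at -0.97, Vav1 at -0.50 and Inpp5d, for the lipid phosphatase SHIP1, at -0.71, and all 4 were called lower. Zap70 (0.50) and Ptpn6 (0.31), for the phosphatase SHP-1, were called higher, and Plcg2 was at 0.11 without a call. In EP2KO cells 6 were called higher and 17 lower (33.3% of all genes called), and in DKO cells 8 higher and 12 lower (30.2% of all genes called).

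With PGE2 in unstimulated WT cells, 5 of the 34 cascade genes were called, 3 higher and 2 lower, where 2.97% of all genes were called. Ptpn6 had the largest fall, -1.88, and it was called in unstimulated EP2KO cells too (-1.34). The phosphoinositide 3-kinase subunit Pik3r1 rose (0.70) and so did the phosphatase gene Ptpn22 (0.68), while the kinase gene Lck fell (-0.97). In stimulated WT cells, where 15.6% of all genes were called, PGE2 gave 5 higher and 11 lower, among them Lcp2 (-1.04), Ptpn6 (-1.07), Plcg2 (-0.90) and Vav1 (-0.54) lower and Inpp5d (0.62) and the ubiquitin ligase gene Cblb (1.27) higher. Syk (0.25) and Zap70 (-0.39) were not called there. None of the 34 was called with PGE2 in DKO cells in either state, where 0% of all genes were.

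Other activating receptors and co-receptors, 20 tested of 22, gave 1 higher and 2 lower calls with PGE2 in unstimulated WT cells (2.97% of all genes called) and 2 higher and 6 lower in stimulated WT cells (15.6%). Cd244a, for the SLAM receptor 2B4, fell in both states (-1.50 and -1.70), as did Slamf7 (-1.25 and -1.24), and Icos rose in both (1.11 and 1.90). With stimulation alone, 6 of the 20 were called higher and 6 lower in WT (42% of all genes called), among them Crtam (3.05) and Slamf7 (1.62) higher and Cd2 (-1.51) and Icos (-1.03) lower. Among the genes related to Klrb1c, Klrb1a (-1.37) and Klrb1f (-0.80) fell with PGE2 in unstimulated WT cells, and Klrb1b, which encodes an inhibitory receptor, stood at 0.08 without a call. Klrb1b, which was lower with stimulation alone (-1.71), rose with PGE2 in stimulated WT cells (1.25), where Klrb1f fell (-1.09).

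NK identity transcripts moved with stimulation as well. In untreated WT cells 3 of 10 were called higher and 5 lower, where 42% of all genes were called. Prf1, for perforin, was at 1.63, while Gzma, for granzyme A, was at -0.96, Klrd1 (CD94) at -0.75 and the receptor gene Klre1 at -0.74. In EP2KO cells 3 were called higher and 6 lower (33.3% of all genes called), and in DKO cells 3 higher and 4 lower (30.2% of all genes called). With PGE2 in unstimulated WT cells 1 of 10 was called, Id2 at -0.81, where 2.97% of all genes were called. With PGE2 in stimulated WT cells, where 15.6% of all genes were called, 3 of 10 were called, all lower, with the transcription factor gene Tbx21 at -1.10, Prf1 at -0.96 and Nkg7 at -0.85. The part of this list in the receptor values was not tested.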

How the data were processed

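Bulk 3' mRNA libraries of cultured mouse NK cells were prepared with sample barcodes and molecular identifiers, per the labels' protocols. The authors deposited 1 table of raw counts per gene for 64 libraries, unnormalized; whether these are molecules or reads, and the aligner, counter, annotation and strand setting, are not stated in labels, notes or header. The submitters' processing notes name GRCm38, mm10 and DESeq2.

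Genes were filtered with filterByExpr (minimum count 10), which left 10723 of 36273 genes holding 99.21% of counts. One edgeR 4.0.16 quasi-likelihood model (robust, TMM normalization, limma 3.58.1, R 4.3.3) with 18 group means was fitted to all 64 libraries, and p-values were Benjamini-Hochberg adjusted over 10723 genes, with a threshold of 0.05. Standard errors were derived from the F statistic, and intervals cover 95%. CPM of single genes use normalized library sizes, and sums over marker lists use library totals. There were 33 comparisons, and 4 more (DKO minus WT) were added after results were seen. DESeq2 1.42.0 served as a second tool. The scripts were tested on simulated data. No pair of libraries was identical.

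The members and gene lists were chosen with earlier results of these data known. All members are named; of each other list, up to 4 called genes with the smallest p per comparison, and always Syk, Zap70, Lcp2, Vav1, Plcg2, Ptpn6, Inpp5d, Klrb1a, Klrb1b and Klrb1f, with Crem as a check of the response. For likeness, up to 3 genes with the highest Pearson r to each member were eligible. Library totals set the precision, and counting error is not separated from replicate spread.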

Additional observations from a re-analysis of the deposited data

Results flagged for a closer look

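Within groups of 4 libraries, 4 of 110 sets of member values held a library far from the others by Dixon's test, and chance gives about 5% of such sets. Klrb1c stood at 127 CPM in stimulated WT CM replicate 2, below the other 3 libraries of its group at 165 to 172 CPM. Cd160 stood at 74.8 CPM in stimulated WT PGE2 replicate 2, against 113 to 120 CPM in the others. Fcer1g stood at 799 CPM in unstimulated EP2KO PGE2 replicate 1, against 987 to 1019 CPM in the others. Hcst stood at 454 CPM in stimulated untreated EP2KO replicate 3, above the others at 329 to 331 CPM.

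Direct tests of a difference between treatment effects passed for Ncr1 and Fcgr3. The Ncr1 effect, stimulated minus unstimulated WT cells, was 1.18 for PGE2 and 1.15 for CM on the log2 scale, and the Fcgr3 effect of CM was 1.30. For Ncr1 in unstimulated cells, the PGE2 effect was 1.06 for DKO minus EP2KO and 1.57 for DKO minus WT, and the CM effect was 1.29 for DKO minus WT. The PGE2 effect on Fcgr3 in stimulated cells, DKO minus WT, was -1.40.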

How the results depend on the processing

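No member value changed sign among those called in 1508 values under the alternatives, 113 gained and 75 lost a call, and 44 of 252 member counts moved by over 1.5 times; the cause was not tested. With a replicate block, the counts of called members were 8 for stimulation in EP2KO (5 without it), 8 and 9 for PGE2 and CM in unstimulated WT (3 and 4), 5 and 5 in unstimulated EP2KO (3 and 3), 5 and 5 in stimulated WT (3 and 3), 2 and 4 in stimulated EP2KO (0 and 0), 1 for CM in unstimulated DKO (0), and 3 and 4 for the PGE2 and CM effects, stimulated minus unstimulated WT (1 and 2). For DKO minus EP2KO in unstimulated cells they were 2 and 2 (1 and 0), and for DKO minus WT 4 and 3 unstimulated (1 and 1) and 2 and 1 stimulated (1 and 0). The labels do not tie same-numbered samples together, and not every pair correlated over 0.1, so the block was kept as an alternative. Between conditions of 1 genotype, same-numbered deviations correlated at -0.12 to 0.60, over 0.1 in 38 of 50 WT, 47 of 60 EP2KO and 38 of 45 DKO pairs, and of all these pairs 40, 47 and 42 were best with their own number. Basophil markers also kept to the number, at 153 to 278 CPM in DKO replicate 1, 894 to 1647 in DKO replicate 2 and 287 to 475 in DKO replicate 3. These are hints from the data that the numbers mark a shared source, not part of the design. The block raised the count over all genes by over 1.5 times in 24 comparisons, for example 679 against 318 genes for PGE2 in unstimulated WT.

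Fitting only the groups compared gave 6 members for stimulation in WT, 8 in EP2KO, 6 and 9 for PGE2 and CM in unstimulated WT, 2 and 1 for DKO minus EP2KO, and 3, 3 and 0 for DKO minus WT with PGE2 unstimulated, CM unstimulated and PGE2 stimulated; over all genes it gave 5 comparisons more and 12 fewer. Library totals without normalization factors gave 8 for stimulation in EP2KO, 8 for CM in unstimulated WT, 2 for CM in stimulated EP2KO, 2 for the PGE2 effect stimulated minus unstimulated, and 2 for PGE2 DKO minus WT unstimulated, and shifted the median of all genes by up to -0.17. DESeq2 gave 2, 1, 2 and 2 for the PGE2 effect stimulated minus unstimulated, CM DKO minus EP2KO, and PGE2 and CM DKO minus WT unstimulated, and its size factors in edgeR gave 2 for PGE2 DKO minus WT. Without the filter, the CM effect stimulated minus unstimulated gave 1 and PGE2 stimulated DKO minus WT 0. The alternatives chosen after seeing the data gave 5, 6 and 1 without stimulated untreated WT replicates 1 and 2 (stimulation, PGE2 stimulated, CM effect stimulated minus unstimulated), and 1 and 1 without EP2KO replicate 4 (PGE2 and CM stimulated).

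Leaving out 1 library at a time gave 5 to 10 members for stimulation in WT, 5 to 7 in EP2KO, 1 to 3 for PGE2 in unstimulated WT, 2 to 3 in EP2KO, 2 to 4 in stimulated WT, 0 to 1 in stimulated EP2KO, 3 to 4 for CM in unstimulated WT and EP2KO, 0 to 2 in stimulated EP2KO, 0 to 2 and 1 to 2 for the PGE2 and CM effects stimulated minus unstimulated, 0 to 1 for PGE2 DKO minus EP2KO, and 0 to 2 for PGE2 stimulated DKO minus WT. Depth limits Lat most, with 7 to 65 counts a library.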
